A study of Mus musculus with 36 samples.

Results

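The 33 genes described here encode subunits of voltage-gated sodium channels, voltage-gated calcium channels and hyperpolarization-activated cyclic nucleotide-gated (HCN) channels. They were taken from a list of gene names. The list uses no measured value as a criterion, although it was drawn up with earlier results of these data known, and its genes stand among 21887 protein-coding genes of the mouse. For each gene the bases covered by peaks of acetylated histone H3 were counted over the gene and the 2 kb beyond each of its ends, in 8 peak lists from dorsal hippocampus. The list holds 9 sodium channel pore genes and 3 of their beta subunits, 4 L-type, 3 P/Q-, N- and R-type and 3 T-type calcium channel pore genes, 4 calcium channel beta and 4 alpha2delta subunits, and 3 HCN genes. In 14 of them the counted window also touches another protein-coding gene, so covered bases counted for these can lie at the other gene as well.

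The study mapped H3K9ac, the acetylated form of lysine 9 in histone H3, and H3K27ac, its counterpart at lysine 27, by chromatin immunoprecipitation and sequencing (ChIP-seq). All mice were male and aged to 8 weeks, and all had a viral vector injected into the brain. The control group carried a control vector (Control), and the knockdown group carried an adeno-associated vector, AAV2/9 U6.shACSS2.CMV.EGFP, which expresses a short hairpin RNA against ACSS2 and was injected into the dorsal hippocampus (ACSS2_KD). Within each vector group, mice were left untreated or received ethanol (EtOH) into the peritoneal cavity at 2 g per kg in a 20% solution. ACSS2 makes acetyl-CoA, the donor of histone acetylation, from acetate, which ethanol yields when it is broken down, and the comparisons ask how acetylation differs with ethanol and with the knockdown. The hairpin acts in the cells the vector reached, while the assay used minced tissue with all its cells. The peak lists hold no measure of ACSS2 protein or RNA, so the knockdown itself was not checked here.

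Voltage-gated sodium channels open when a neuron depolarizes and carry the upstroke of the action potential, and their beta subunits tune gating and anchor the pore at the membrane. Calcium channels turn the action potential into calcium entry, which drives transmitter release, dendritic spikes and activity-dependent gene expression. HCN channels open on hyperpolarization and set resting excitability and rhythmic firing. H3K9ac and H3K27ac both mark active promoters, and H3K27ac also marks active enhancers, many of which lie inside long genes such as these.

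The 36 samples form 12 groups of 3 replicates, made of 24 ChIP libraries and 12 inputs, and each peak list stands for the 3 replicates of a group. There is therefore no replicate spread, no test and no p-value below, and the read depth behind each list is unknown. The lists differed in size, from 31042 to 42120 peaks for H3K9ac and from 86110 to 119317 for H3K27ac. In both marks the smallest list was that of ethanol-treated control mice and the largest that of ethanol-treated knockdown mice, and whether depth took part in this was not tested. Of 8 excitatory neuron markers 6 or 7 had a peak within 2 kb of a gene end in each list, and of 7 inhibitory neuron markers 2 to 4 had one, with no peak for Slc32a1, Sst or Vip in any list. Of 5 microglial markers 0 to 2 had a peak, and of 3 sensory ganglion markers 0 or 1.

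Of the 33 channel genes, 30 had a peak in at least 1 of the 8 lists (90.9%), compared with 72.8% of all protein-coding genes. The 3 without any peak were Scn10a and Scn11a, which encode sodium channels of pain-sensing neurons, and Scn7a, which encodes a relative of the sodium channels that senses sodium concentration.

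Starts with many CpG dinucleotides all carried both marks, while starts with few CpG ranged from bare to marked in every list. RefSeq (GRCm38.p6) gave 36 transcription starts for 26 of the 33 genes, with strand. Peak coverage was counted within 1 kb of each start, and CpG dinucleotides in the 250 bases before it. The bounds of 10 and 20 CpG, and the starts shown, were chosen after the values were seen. All 14 starts with at least 20 CpG had a peak in all 8 lists, as did 93.6% of 5048 such starts over all genes, and 2 of these 14 lie 0.284 kb apart in Cacnb4. Of the 20 starts with fewer than 10 CpG, 5 had a peak in all 8 lists (25%, against 21.9% of all such starts) and 7 had none (35%, against 62.8%).

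Starts with and without peaks also occurred within single genes. The 150 bases before 2 starts of Cacna1c and of Cacna1d, the L-type calcium channel pore genes that couple neuronal activity to transcription, are given here on the strand of the gene with each CpG in capitals, because only the second of these 2 starts carried peaks.
Cacna1c start 1: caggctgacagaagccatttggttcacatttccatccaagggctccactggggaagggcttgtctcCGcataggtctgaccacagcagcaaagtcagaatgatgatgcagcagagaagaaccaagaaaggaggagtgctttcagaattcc
Cacna1c start 2: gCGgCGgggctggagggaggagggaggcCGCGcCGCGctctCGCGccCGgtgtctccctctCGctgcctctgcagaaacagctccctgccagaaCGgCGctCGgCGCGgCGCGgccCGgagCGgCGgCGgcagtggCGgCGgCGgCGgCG
Cacna1d start 1: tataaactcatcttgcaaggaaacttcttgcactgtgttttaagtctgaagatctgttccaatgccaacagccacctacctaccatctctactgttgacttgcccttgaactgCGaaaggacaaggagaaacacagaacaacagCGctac
Cacna1d start 2: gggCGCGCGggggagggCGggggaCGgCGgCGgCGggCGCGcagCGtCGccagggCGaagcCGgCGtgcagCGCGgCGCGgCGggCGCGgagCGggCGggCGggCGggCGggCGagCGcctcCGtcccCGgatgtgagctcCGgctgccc

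These sequences are from GRCm38.p6, minus strand. The Cacna1c sequences lie at chr6:119196410-119196559 (start 1) and chr6:119108496-119108645 (start 2), and the Cacna1d sequences at chr14:30491157-30491306 (start 1) and chr14:30353487-30353636 (start 2). Start 1 of Cacna1c, with 2 CpG in 250 bases, had no peak in any of the 8 lists. Start 2, which lies 87.9 kb further along the gene and has 48 CpG, was covered over 1514, 1124, 1629 and 1664 bp by H3K9ac in untreated control, ethanol-treated control, untreated knockdown and ethanol-treated knockdown mice. In the same order, the order used throughout, its H3K27ac coverage was 1695, 1724, 1647 and 1701 bp, so the 4 H3K27ac values at this start were close together. Cacna1d had the same arrangement, with no peak at start 1 (2 CpG). Its start 2 (50 CpG, 138 kb further on) was covered over 1373, 985, 1509 and 1617 bp by H3K9ac and over 1703, 1344, 1557 and 1587 bp by H3K27ac. Another start of Cacna1c, 438 kb from the first and with 5 CpG, had H3K27ac in the knockdown lists only, over 136 and 139 bp.

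Low CpG content did not go with absence of the marks in every gene. The next sequences, from the plus strand, are the starts of Scn2a, the sodium channel of excitatory axons, and of Scn2b, a beta subunit, which carried peaks in all 8 lists with few CpG.
Scn2a start 1: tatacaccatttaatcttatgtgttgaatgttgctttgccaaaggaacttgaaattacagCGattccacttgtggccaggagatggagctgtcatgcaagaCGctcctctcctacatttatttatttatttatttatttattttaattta
Scn2a start 2: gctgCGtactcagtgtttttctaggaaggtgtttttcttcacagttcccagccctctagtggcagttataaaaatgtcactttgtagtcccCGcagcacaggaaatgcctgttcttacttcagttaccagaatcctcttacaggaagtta
Scn2b: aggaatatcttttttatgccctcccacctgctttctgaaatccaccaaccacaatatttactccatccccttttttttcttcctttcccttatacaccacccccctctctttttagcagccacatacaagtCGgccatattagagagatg

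They lie at chr2:65620619-65620768 (Scn2a start 1), chr2:65668536-65668685 (Scn2a start 2) and chr9:45117726-45117875 (Scn2b). Start 1 of Scn2a, with 2 CpG in 250 bases, was covered over 758, 705, 831 and 952 bp by H3K9ac. Start 2, 47.9 kb further on with 9 CpG, was covered over 880, 929, 1116 and 1132 bp. At the single start of Scn2b, with 1 CpG, H3K9ac covered 889, 842, 861 and 842 bp, nearly equal in the 4 conditions, and H3K27ac covered 929, 558, 982 and 888 bp, lowest in ethanol-treated control mice. The start of Cacna1e, the R-type calcium channel pore gene, had 6 CpG and was covered over 1723, 901, 1790 and 1921 bp by H3K9ac.

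Hcn4, the pacemaker channel of the heart's sinoatrial node, and Scn10a, with few CpG, are shown as a marked and an unmarked start. The Hcn4 sequence is on the plus strand at chr9:58822799-58822948 and has 25 CpG in its 250 bases. The Scn10a sequence is on the minus strand at chr9:119719033-119719182 and has 8.
Hcn4: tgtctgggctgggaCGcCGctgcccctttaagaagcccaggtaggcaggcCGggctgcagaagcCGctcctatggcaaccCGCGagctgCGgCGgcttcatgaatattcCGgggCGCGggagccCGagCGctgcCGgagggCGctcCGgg
Scn10a: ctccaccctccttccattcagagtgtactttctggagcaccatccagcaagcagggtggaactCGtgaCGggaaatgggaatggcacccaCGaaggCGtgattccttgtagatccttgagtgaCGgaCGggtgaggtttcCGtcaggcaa

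Hcn4 had peaks of both marks in all 8 lists and Scn10a had none. The Hcn4 start is shared ground, since the gene Rec114 (chr9:58652856-58822706) ends just before it, and all peak-covered bases of Hcn4 lay within 2 kb of that end. Values for Hcn4 therefore cannot be told apart from those of Rec114.

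**Figure D1:**
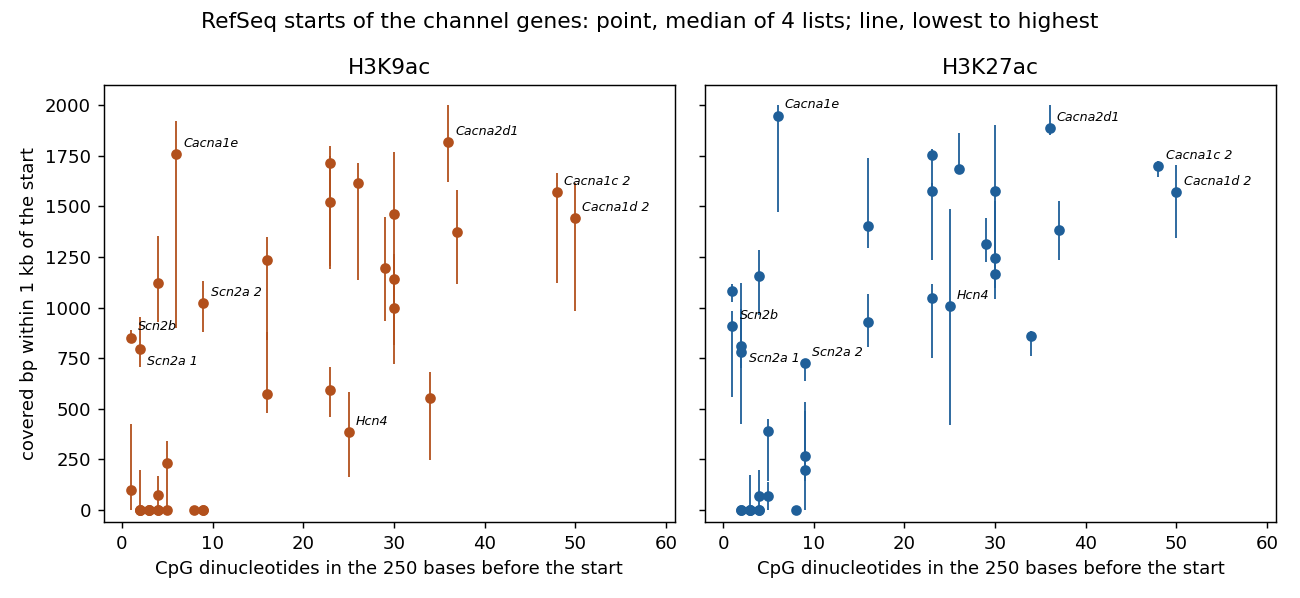
Bases covered by peaks within 1 kb of each of the 36 RefSeq starts (y axis, bp) against the number of CpG dinucleotides in the 250 bases before the start (x axis), for H3K9ac (left) and H3K27ac (right). Points are medians of the 4 lists and lines run from the lowest to the highest list. Every start with at least 20 CpG is covered in both marks, while starts with fewer than 10 lie between 0 and the level of Cacna1e.

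The starts of the channel genes had a median GC content of 58.8% and a median of 9 CpG, against 55.6% and 10 over all 21263 RefSeq starts. Short motifs were searched on both strands in the windows of 250 bases before and 50 after each start. The GC box GGGCGG was in 16 of 36 windows (44.4%, against 46.2% of all) and the E-box CAGATG in 7 (19.4%, against 14.6%). The TATA sequence TATAAA was in 2 windows (5.56%, against 12.6%), those of Cacna1d and Scn2a. None of the 36 held the cyclic AMP response element TGACGTCA (2.23% of all), the AP-1 site TGAGTCA (4.66%) or the E-box CACGTG (7.84%). For the RE1 repressor element only a fixed spelling was searched, which was in none of the 36 and in 2 of all 21263 windows. A spelling this rare would be missing from nearly any 36 windows, so its absence does not show whether these genes have RE1 elements. Other spellings of RE1, and sites outside these windows, were not tested. A match is a description of the letters and not of binding.

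In untreated control mice the covered share of each gene's span differed widely between genes. H3K9ac covered a median of 0.937% of the span of the 33 genes and H3K27ac 2.35%. Cacnb3, which encodes an intracellular beta subunit that brings calcium channels to the membrane, had the largest share of both marks, with 16.2% of its span in H3K9ac peaks and 22.9% in H3K27ac peaks, of which 22.7% of the covered bases lay within 2 kb of an end of Ddx23. Cacnb1 followed, with 21.5% for H3K27ac, but 80.8% of its H3K9ac-covered bases lay within 2 kb of an end of Rpl19, a ribosomal protein gene. Scn9a, a sodium channel of sensory neurons, had the smallest share above 0, with 0.154% and 0.250%. Scn4a, the skeletal muscle sodium channel, had a single H3K9ac peak of 287 bp in untreated control mice and none in the other 3 lists.

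In covered bases, Cacna1c, Cacna1e and Scn8a had the most of both marks. Cacna1c (chr6:118587240-119197384, 610 kb) had 25459 bp of H3K27ac in untreated control mice, Cacna1e (chr1:154390806-154884785, 494 kb) had 18042 bp, and Scn8a (chr15:100869863-101045938, 176 kb), the main sodium channel of the adult axon initial segment, had 12537 bp. For H3K9ac the 3 highest were Cacna1c with 5552 bp, Scn8a with 5309 bp and Cacna1e with 5043 bp. The longest gene, Cacna2d3, had 4837 bp of H3K27ac over 818 kb, while Cacna1h had 12044 bp over 62.1 kb. Since a longer gene offers more bases to cover, levels of different genes are better compared as shares of the span, and the comparisons below are between conditions within a gene.

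**Figure D2:**
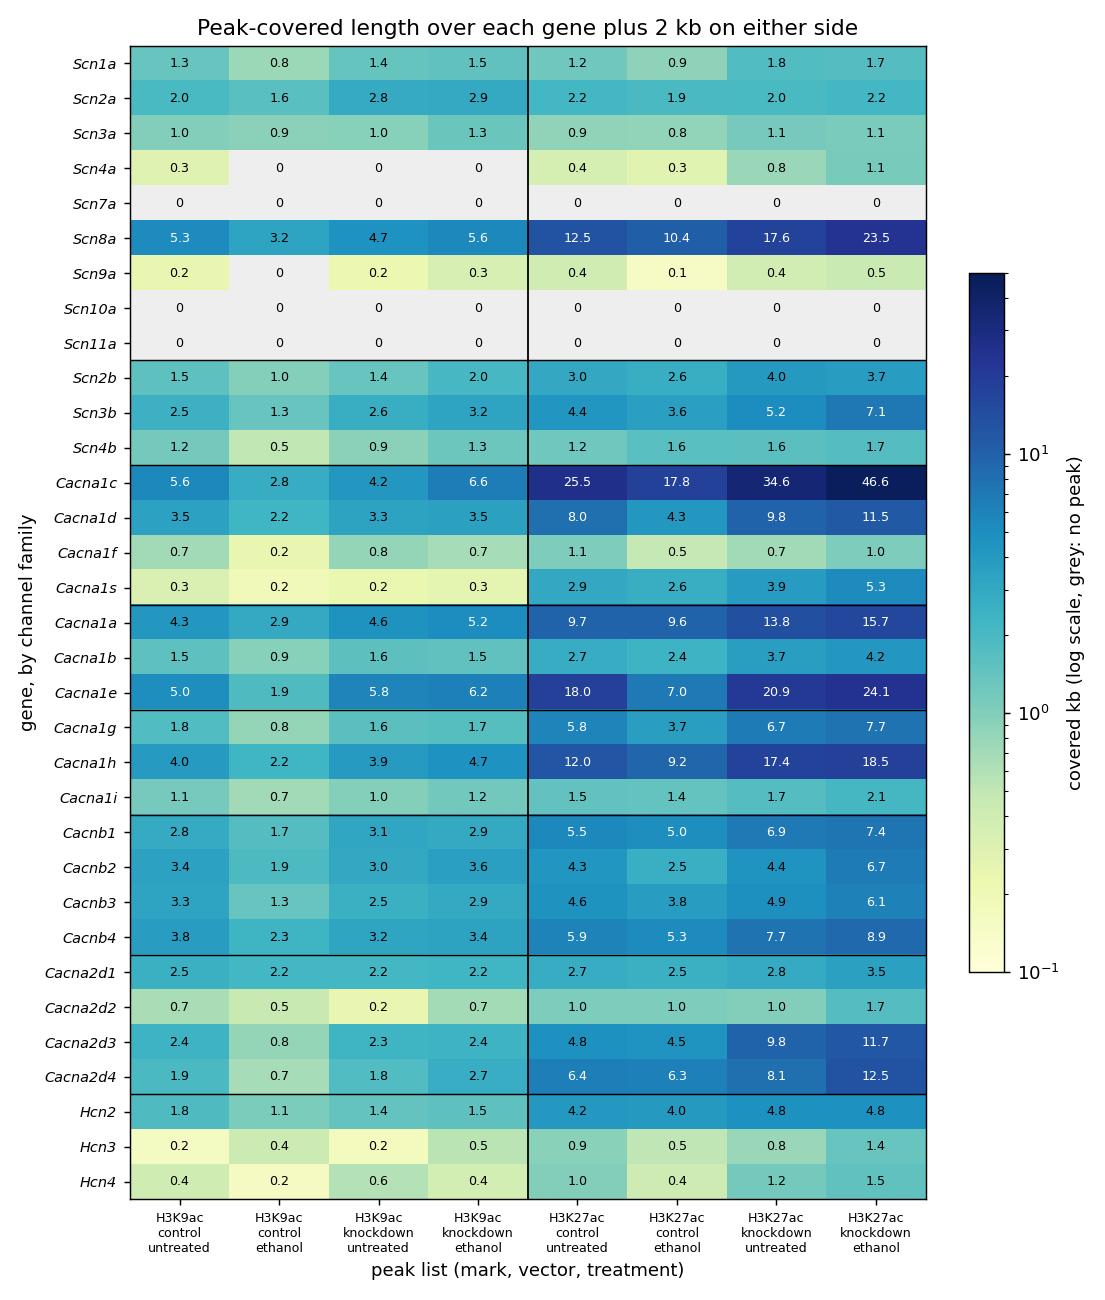
Peak-covered length of each channel gene and the 2 kb on either side (kb, log color scale), with genes in rows by family and the 8 lists in columns. Scn7a, Scn10a and Scn11a are grey in every column, and in all other rows but Scn4b, Hcn3 and Cacna2d2 the ethanol column of the control vector is at or below the untreated one in both marks.

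More H3K27ac-covered bases lay inside the channel genes than at their ends, with 118910 bp more than 2 kb from both ends and 36040 bp within 2 kb of an end in untreated control mice. H3K9ac was more evenly divided, with 36576 bp inside and 29692 bp at ends untreated, and 18276 and 19006 bp after ethanol with control vector. Joining the peaks of a mark wherever they met or overlapped across its 4 lists gave 142 H3K9ac and 773 H3K27ac regions at the channel genes. Of the H3K27ac regions, 689 lay more than 2 kb from both gene ends. Whether these lie in exons or introns is not analysed here, since the gene table gives only gene ends. Some of them lie at RefSeq starts inside the annotated gene, as in Cacna1c, Cacna1d and Cacna1e. The genes with most H3K27ac regions were Cacna1c with 156, Cacna1e with 88, Scn8a with 70 and Cacna1a, the P/Q-type pore gene of transmitter release, with 63. The widest was a region of 4313 bp in Cacna1e (chr1:154723099-154727411), which spans the RefSeq start of that gene.

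At the channel genes, regions at gene ends recurred in more lists than regions inside genes. Shares by place over all genes are not given here, so this is not a comparison with them. For H3K9ac, 28 of 47 regions at ends (59.6%) and 23 of 95 inside (24.2%) were in all 4 lists. For H3K27ac these were 40 of 84 (47.6%) and 109 of 689 (15.8%). Over both places 35.9% of the H3K9ac regions (95% Wilson interval 28.5% to 44.1%, counting error only) and 19.3% of the H3K27ac regions (16.6% to 22.2%) were in all 4 lists, against 39.3% and 28.8% of regions at all protein-coding genes. The recurrent regions were wide, with medians of 1140 bp for H3K9ac and 894 bp for H3K27ac. Those in 1 list alone were narrow, with medians of 178.5 and 175 bp. A region joins the overlapping peaks of all its lists, so regions of more lists tend to be wider by construction.

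The marks overlapped unequally. In untreated control mice 90 of 105 H3K9ac peaks of the channel genes (85.7%) overlapped an H3K27ac peak, close to the 86.3% of H3K9ac peaks at all genes. In the other direction 94 of 432 H3K27ac peaks (21.8%) overlapped an H3K9ac peak, against 38.1% at all genes. The share of the channel genes' H3K27ac peaks with H3K9ac was 22.4% in ethanol-treated control mice, 94 of 495 in untreated knockdown and 15.3% in ethanol-treated knockdown mice, so in each list most of their H3K27ac peaks had no H3K9ac peak on them.

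For the comparisons, a gene was called more or less covered when the 2 lists differed by at least 1.5-fold and 200 bp. Each comparison sets 1 list against 1 list. In minced tissue fewer cells of a type and less acetylation per cell cannot be told apart. The 4 comparisons of a mark share lists in pairs, so that the list of ethanol-treated control mice enters both the first and the last. Counts by this rule are read beside the share of all covered protein-coding genes called the same way.

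With control vector, the channel genes had less H3K9ac coverage after ethanol than untreated, in all but 1 case. Fewer bases were covered in 29 of the 30 genes with a peak. By the call rule 23 of the 30 were less covered, against 33% of all covered protein-coding genes, and 1 was more covered, against 1.04%. With a 2-fold rule 11 were less covered, and the share of all genes by that rule is not given here. The median change over the 30 genes was -42.6%, against -25.2% over all covered genes, and their summed coverage was 37282 bp after ethanol and 66268 bp untreated (-43.7%, against -27.2% for all genes). The same lists differed at other markers too: summed coverage at the ends of the 8 excitatory neuron markers was 12523 bp untreated and 8125 bp after ethanol, with Neurod6 at 0 after ethanol, and at the 5 astrocyte markers 3611 and 1579 bp, with Aqp4 at 0 in both and Gfap and Aldh1l1 at 0 after ethanol. The part of cell makeup in the result was not tested. Lists cut to equal length were among the alternatives described below, and their count for this comparison is not given here. Long genes were called more often in general. Of all genes of 100 kb or longer, a class set after the values were seen, 42.3% were less covered, and of the 17 channel genes in it, 12.

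The less covered genes came from every family: 4 of 6 covered sodium channel pores, all 3 covered beta subunits of sodium channels, 3 of 4 L-type, 2 of 3 P/Q, N and R-type and all 3 T-type calcium channel pores, all 4 calcium channel beta subunits, 2 of 4 alpha2delta subunits and 2 of 3 HCN genes. Cacna1e had the largest difference in bases, with 5043 bp of H3K9ac untreated and 1853 bp after ethanol, a 2.72-fold lower value. The knockdown values were 5846 bp untreated and 6229 bp after ethanol, so the ethanol-treated control list alone was low. Cacna1c had 5552, 2768, 4227 and 6646 bp of H3K9ac, again lowest in ethanol-treated control mice. Scn8a had 5309, 3243, 4699 and 5614 bp, with the ethanol-treated control list again the lowest.

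Among the subunits that accompany the calcium channel pores, H3K9ac was lowest in ethanol-treated control mice at all 4 beta subunits and at Cacna2d3 and Cacna2d4. It was lowest in untreated knockdown mice at Cacna2d1 (2481, 2163, 2152 and 2241 bp) and at Cacna2d2 (653, 458, 245 and 684 bp). Cacnb3 had 3251, 1344, 2490 and 2861 bp of H3K9ac, with a region of all 4 lists inside the gene (chr15:98634015-98636521). Cacna2d3, an alpha2delta subunit that promotes surface expression of calcium channels and the longest of the 33 genes at 818 kb, had 2354, 816, 2325 and 2369 bp, and its 3 other lists were nearly equal. Cacna2d4, best known from the retina, had 1936, 670, 1830 and 2700 bp. Much of this is shared, since Lrtm2 (chr6:119315133-119332270) lies within Cacna2d4. The widest H3K9ac peak of each list lay wholly inside Lrtm2, with widths of 1502 bp in untreated control and 505 bp in ethanol-treated control mice. Within 2 kb of an end of another gene lay 43.0% of the H3K9ac-covered bases of untreated control and 65.1% of those of ethanol-treated control mice. Cacnb2 had 3425, 1903, 2978 and 3625 bp.

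Of the remaining called genes, Scn3b, a sodium channel beta subunit, had 2455, 1344, 2614 and 3236 bp of H3K9ac. Scn4b, the beta subunit tied to resurgent current, had 1176, 501, 904 and 1302 bp. Cacna1g and Cacna1h, T-type pores that open near resting potential and support burst firing, had 1822, 807, 1622 and 1710 bp and 3954, 2237, 3948 and 4714 bp. In each of these 4 genes the ethanol-treated control list was the lowest. The 6 covered genes that were not called had lower values after ethanol too, for example 2481 and 2163 bp in Cacna2d1, whose protein binds gabapentin, and 985 and 908 bp in Scn3a, a sodium channel expressed mainly before birth.

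Hcn3 was the exception, with 155 bp of H3K9ac untreated and 423 bp after ethanol. Its peaks were narrow, and its values in knockdown mice were 172 bp untreated and 544 bp after ethanol, so both ethanol lists were above both untreated lists. Its H3K27ac did not have that order, with 922, 518, 784 and 1358 bp.

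H3K27ac coverage after ethanol with control vector was also lower at most channel genes, by smaller amounts. Fewer bases were covered in 28 of 30 genes. By the rule 8 of 30 were less covered, against 6.75% of all covered genes, and 0 were more covered, against 5.75%. With a 2-fold rule 4 were less covered, again without a share of all genes by that rule. The median change was -15.0%, against -2.90%, and the summed coverage was 116654 bp after ethanol and 154950 bp untreated (-24.7%, against -4.18% for all genes). Between the same lists, summed H3K27ac coverage at the ends of the 8 excitatory neuron markers was 20797 bp untreated and 18674 bp after ethanol, while at the 6 oligodendrocyte lineage markers it was 9584 and 12348 bp, and at the 5 astrocyte markers 3649 and 4472 bp, with Aldh1l1 and Aqp4 at 0 in both. At the 7 inhibitory neuron markers it was 1129 and 1243 bp, with Gad2, Slc32a1, Sst and Vip at 0 in both. The astrocyte, oligodendrocyte and inhibitory neuron sums were thus higher after ethanol and the excitatory neuron sum lower. The part of these marker differences in the result was not tested. Of all 2254 covered genes of 100 kb or longer 271 were less covered, and of the 17 channel genes in that class, 4. The 8 genes were Cacna1e, Cacna1d, Cacna1g, Cacna1f, Cacnb2, Scn9a, Hcn3 and Hcn4.

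Cacna1e differed by more H3K27ac bases than any other channel gene. It had 18042 bp in 54 peaks untreated and 6962 bp in 15 peaks after ethanol with control vector, against 20869 bp in 57 peaks and 24124 bp in 62 peaks in the knockdown. The R-type channel it encodes admits calcium into dendritic spines. The difference lay inside the gene, with 15920, 4957, 18573 and 21663 bp more than 2 kb from both annotated ends. Within 2 kb of those ends coverage was similar, at 2122, 2005, 2296 and 2461 bp. Counting whole peaks by their midpoint, those more than 2 kb before the RefSeq start covered 8479, 2889, 10593 and 12028 bp. Those within 2 kb of it covered 4109, 2253, 4308 and 2939 bp, in part beyond that bound, and those more than 2 kb after it 5454, 1820, 5968 and 9157 bp. Within 1 kb of the start coverage was 2001, 1472, 2001 and 1897 bp. The stretch before the start lies within the annotated gene, which reaches further on that side than this start. Of the 88 merged H3K27ac regions of Cacna1e, 14 were in every list but that of ethanol-treated control mice (15.9%) and 8 were in all 4. Over all channel genes 51 of 773 regions had the first pattern (6.60%, against 4.52% at all genes), and for H3K9ac 14 of 142 (9.86%, against 5.35%).

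**Figure D3:**
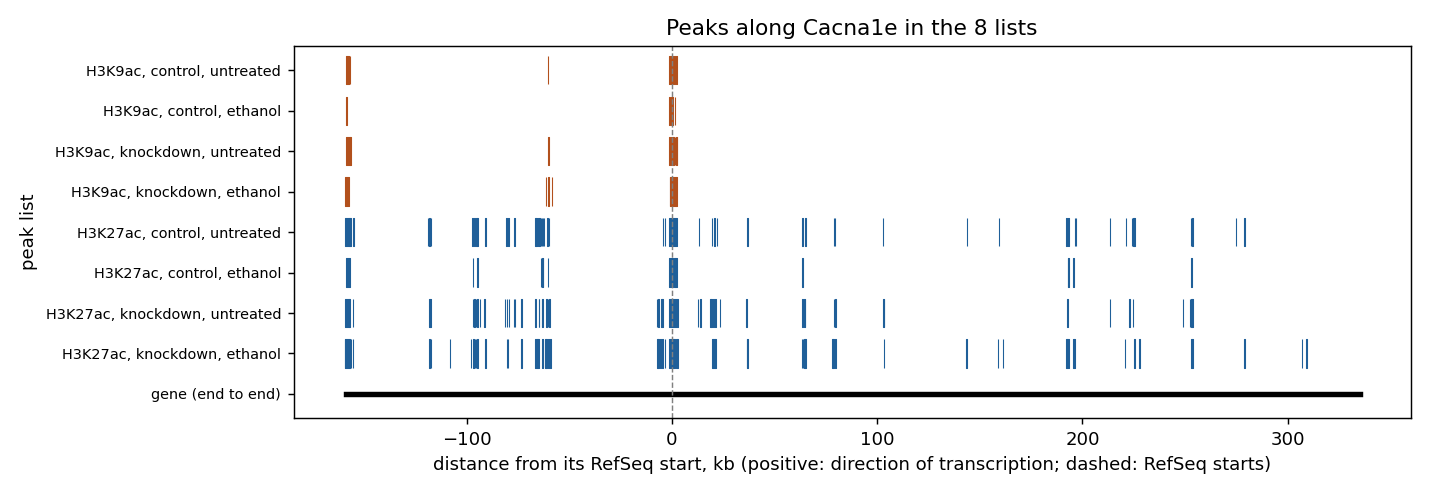
Peaks along Cacna1e in each of the 8 lists (bars, to scale), with distance from its RefSeq start in kb on the x axis and 1 list per row, H3K9ac above and H3K27ac below. The H3K27ac row of ethanol-treated control mice holds 15 peaks, while the other 3 H3K27ac rows hold 54, 57 and 62.

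The other genes on this list of 8 had smaller differences. Cacna1d had 8035, 4294, 9815 and 11542 bp of H3K27ac, lowest in ethanol-treated control mice. Of these bases 12.6% untreated and 21.5% after ethanol with control vector lay within 2 kb of an end of another gene, as did 38.4% and 50.1% of its H3K9ac. Cacna1g had 5819, 3711, 6714 and 7673 bp, and Cacnb2 had 4312, 2530, 4445 and 6698 bp. The retinal L-type gene Cacna1f had 1050, 476, 699 and 1033 bp. The bases within 2 kb of its ends were 232, 256, 232 and 297, and all of them also lay within 2 kb of an end of the neighbouring gene Ccdc22 (chrX:7593809-7605420). They made up 22.1% of its H3K27ac untreated and 53.8% after ethanol with control vector, and the RefSeq start of Cacna1f had no peak in any list. Cacna1c was below the fold of the rule, with 25459 bp untreated and 17821 bp after ethanol.

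Gene ends and gene interiors differed in size of change. Inside here means more than 2 kb from both annotated ends. It therefore includes RefSeq starts with peaks, such as start 2 of Cacna1c, start 2 of Cacna1d and the start of Cacna1e. With control vector, H3K9ac of the channel genes after ethanol changed in sum by -36.0% within 2 kb of the ends and by -50.0% inside, against -22.4% and -42.7% for all genes. Inside, 15 of 22 channel genes were less covered, against 46.7% of all genes with interior peaks. H3K27ac changed by -8.16% at the ends and by -29.7% inside, against -1.98% and -6.75% for all genes.

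**Figure D4:**
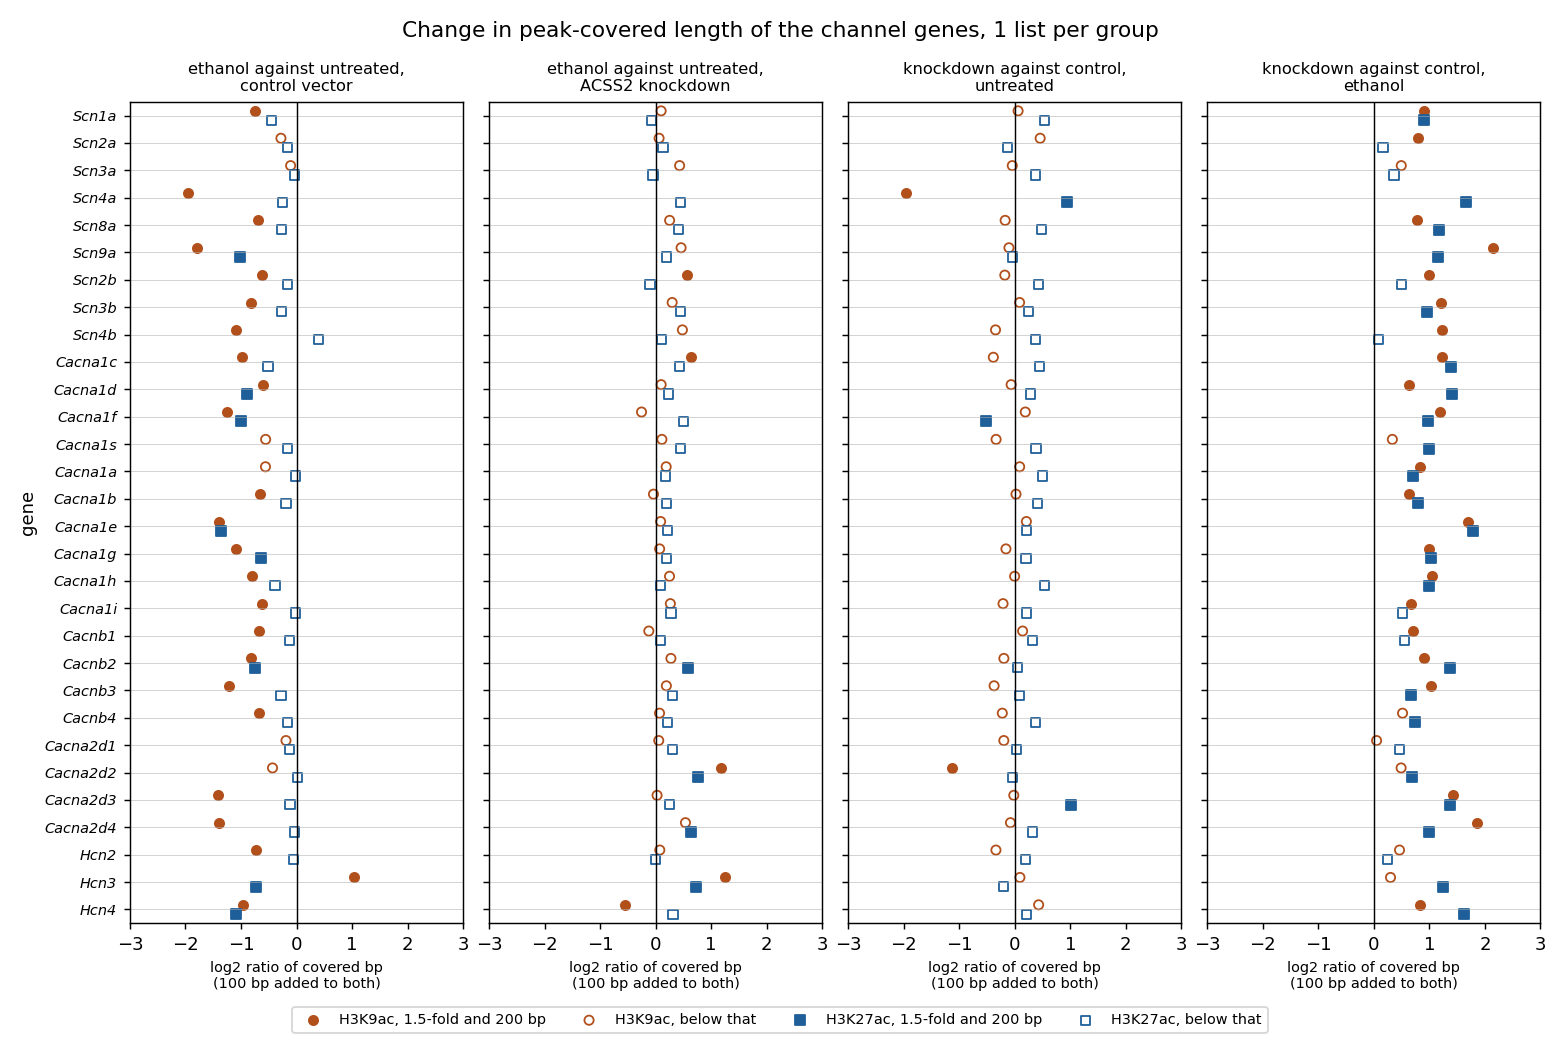
Log2 ratio of covered bases in the 4 comparisons (panels) for the 30 channel genes with a peak, with 100 bp added to both values, circles for H3K9ac and squares for H3K27ac. Filled symbols pass 1.5-fold and 200 bp. Filled symbols lie left of 0 in the first panel except for Hcn3 H3K9ac, and right of 0 in all cases in the last panel, and these panels share the list of ethanol-treated control mice.

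With the ACSS2 knockdown, ethanol went with slightly higher coverage of both marks. For H3K9ac 25 of 29 genes had more bases after ethanol, and 4 were called more covered, against 11.4% of all genes, and 1 less, against 3.29%. The 4 were Cacna1c (4227 bp untreated, 6646 bp after ethanol), Scn2b (1355 and 2042 bp), Cacna2d2 (245 and 684 bp) and Hcn3 (172 and 544 bp). Hcn4 was the gene called less covered, with 583 and 366 bp. The median change was 14.4%, against 6.65% over all genes. For H3K27ac 26 of 30 had more bases, and 4 were called more covered, against 13.6% of all genes, and 0 less, against 1.85%. These were Cacna2d4 (8070 and 12542 bp), Cacnb2 (4445 and 6698 bp), Cacna2d2 (994 and 1745 bp) and Hcn3 (784 and 1358 bp, of which 287 bp after ethanol lay near an end of Pklr). The widest H3K27ac peak of Cacna2d4, 1794 bp untreated and 3694 bp after ethanol, lay wholly inside Lrtm2. As shares of the covered channel genes, the more covered ones made up 13.8% for H3K9ac and 13.3% for H3K27ac, close to the shares of all genes.

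Without ethanol, few channel genes were called different between the knockdown and control lists. For H3K9ac 0 genes were called more covered, against 4.2% of all genes, and 2 less, against 9.22%. Those 2 were Cacna2d2 (653 bp with control vector, 245 bp in the knockdown) and Scn4a (287 and 0 bp). H3K9ac covered fewer bases in the knockdown at 20 of 30 genes, with a median change of -7.64%, against -3.63%. For H3K27ac 2 genes were called more covered, against 12.8% of all genes, and 1 less, against 2.3%, with a median change of 23.7% against 10.6%. H3K27ac covered more bases in the knockdown at 25 of 30 genes. The summed H3K27ac coverage of the channel genes changed by 29.1%, against 16.1% for all genes. Cacna2d3 had 4837 bp with control vector and 9829 bp in the knockdown, a 2.03-fold higher value. Scn4a had 358 and 781 bp, and Cacna1f, the gene called less covered, had 1050 and 699 bp.

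After ethanol, the knockdown list exceeded the control list at nearly every channel gene. For H3K9ac all 29 genes with a peak in either list had more bases in the knockdown, and 22 were called more covered, against 37.4% of all genes, and 0 less, against 0.913%. For H3K27ac all 30 had more bases, and 22 were called more covered, against 30.6% of all genes, and 0 less, against 1.14%. With a 2-fold rule 13 were more covered in H3K9ac and 14 in H3K27ac, without a share of all genes by that rule. The median changes were 85.9% for H3K9ac, against 35% over all genes, and 98.4% for H3K27ac, against 27.4%. Of all genes of 100 kb or longer, 53.6% were more covered in H3K9ac and 53.4% in H3K27ac, and of the 17 channel genes in that class 13 in each mark. The summed end coverage of the excitatory neuron markers was also higher in the knockdown, at 8125 bp with control vector and 17608 bp in the knockdown for H3K9ac and 18674 and 24288 bp for H3K27ac. At the astrocyte markers it was 1579 and 3398 bp for H3K9ac and 4472 and 6957 bp for H3K27ac, with Aqp4 at 0 in all of these lists. At the oligodendrocyte lineage markers it was 4334 and 4297 bp for H3K9ac and 12348 and 9165 bp for H3K27ac. The part of these marker differences in the result was not tested. Since the first comparison uses the same ethanol-treated control list, these counts are not a separate observation of it.

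The largest difference in bases was that of Cacna1c, whose H3K27ac covered 17821 bp in ethanol-treated control and 46606 bp in ethanol-treated knockdown mice, 2.62-fold more. Untreated values were 25459 bp with control vector and 34595 bp in the knockdown, so the 4 lists stood in the order ethanol control, untreated control, untreated knockdown and ethanol knockdown. Counting whole peaks by their midpoint, those within 2 kb of its CpG-rich start covered 2292, 2392, 3628 and 3819 bp. These sums depend on where wide peaks fall. The untreated knockdown sum includes a whole peak from -0.068 to 2.981 kb, while an untreated control peak from 1.502 to 2.669 kb was counted further along. Within 1 kb of the start the covered bases were close, at 1695, 1724, 1647 and 1701. Peaks with a midpoint more than 2 kb further along the gene covered 22179, 14520, 29271 and 41556 bp, in 71, 49, 85 and 110 peaks. Of its 156 merged regions 41 were in the ethanol-treated knockdown list alone (26.3%) and 24 in all 4. Over all channel genes 177 of 773 H3K27ac regions were in that list alone (22.9%, against 20.3% at all genes).

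**Figure D5:**
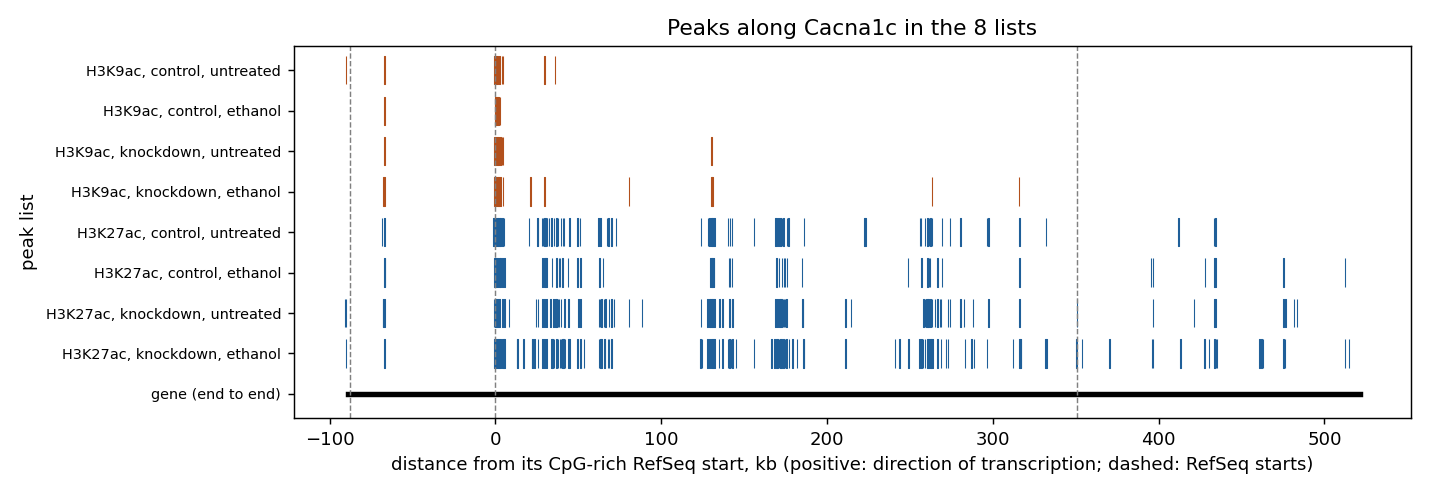
Peaks along Cacna1c in each of the 8 lists (bars, to scale), with distance from its CpG-rich start in kb on the x axis and dashed lines at its 3 RefSeq starts. Every list has peaks at 0, the start before it is bare, and the H3K27ac rows hold 76, 54, 92 and 114 peaks from top to bottom.

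Scn8a had 12537, 10372, 17584 and 23524 bp of H3K27ac, 2.27-fold more in the ethanol-treated knockdown than in the ethanol-treated control list. Both knockdown lists of this gene were above both control lists. Cacna1h had 12044, 9179, 17421 and 18468 bp and Cacna1a 9740, 9600, 13797 and 15665 bp, in the same arrangement. Cacna2d3 had 4837, 4455, 9829 and 11719 bp, where the control lists were nearly equal and both knockdown lists were far above them. Cacna2d4 had 6435, 6280, 8070 and 12542 bp, and its widest peak in each list lay inside Lrtm2. Regions in both knockdown lists only made up 79 of 773 H3K27ac regions of the channel genes (10.2%, against 6.21% at all genes).

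Genes of channels known mainly from other tissues differed in coverage. Cacna2d4, Cacna1s and Cacna1f had 5.37%, 4.12% and 3.27% of their span in H3K27ac peaks in untreated control mice, above the median of the 33 genes, and Scn4a and Scn9a were below it. Cacna1s, the L-type channel of skeletal muscle, had 319, 185, 232 and 259 bp of H3K9ac, and all of it lay within 2 kb of an end of Ascl5. Its H3K27ac was 2928, 2603, 3852 and 5264 bp, with 27.5% of the untreated control bases near that gene. Scn4a had 358, 284, 781 and 1107 bp of H3K27ac, Scn9a 397, 146, 381 and 450 bp and Hcn4 1001, 418, 1179 and 1489 bp. Hcn2, the HCN gene of thalamus and hippocampus, had 4165, 4013, 4777 and 4755 bp of H3K27ac, in which the 4 lists differed little. Its H3K9ac was 1845, 1076, 1438 and 1520 bp, and was called less covered after ethanol with control vector.

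Scn1a and Scn2a, the sodium channel genes most often altered in childhood epilepsy, carried few regions. Scn1a, prominent in inhibitory neurons, had 1236, 881, 1830 and 1732 bp of H3K27ac, with a region of all 4 lists more than 2 kb from the annotated ends (chr2:66408368-66410163). Its RefSeq start, with 4 CpG, had a peak in 4 of 8 lists, none over 197 bp. Scn2a had 2182, 1934, 1982 and 2182 bp, and both of its starts were covered in every list. Scn2a H3K9ac was 2006, 1634, 2792 and 2919 bp, with both knockdown lists above both control lists.

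Genes of proteins that bind or place these channels, 38 in all, were counted in the same way. With control vector 14 of 34 covered partner genes were less covered in H3K9ac after ethanol, against 33% of all genes, and 0 more, against 1.04%. For H3K27ac 6 of 36 were less covered, against 6.75%, and 1 more, against 5.75%. Ank3, which encodes the ankyrin that anchors sodium channels at the axon initial segment, had 8814, 3976, 8003 and 8055 bp of H3K9ac. Fgf14 and Fgf12, intracellular partners of sodium channels, had 4268, 1900, 3846 and 3676 bp and 3838, 2426, 3836 and 4387 bp. In these 3 genes too the ethanol-treated control list was the lowest. For H3K27ac the largest differences were at Tnr (13844, 8120, 19874 and 22726 bp), Nrcam (8022, 4572, 9771 and 11205 bp) and Cacng2 (2169, 1129, 2189 and 2702 bp), which encode an extracellular matrix protein, an adhesion protein and an AMPA receptor auxiliary protein.

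After ethanol, 24 of 34 partner genes were more covered in H3K9ac in the knockdown than with control vector, against 37.4% of all genes, and 19 of 36 in H3K27ac, against 30.6%. None was less covered in either mark, against 0.913% and 1.14%. Ank3 H3K27ac was 27492, 21263, 34148 and 40254 bp, and Rimbp2, which ties presynaptic calcium channels to the release machinery, had 15207, 10331, 23682 and 27237 bp. Both had their highest H3K27ac in the ethanol-treated knockdown list. In the knockdown, ethanol went with 8 of 34 more covered partner genes in H3K9ac, against 11.4% of all genes, and 7 of 36 in H3K27ac, against 13.6%, and none less covered, against 3.29% and 1.85%. Without ethanol the knockdown had 2 of 34 more covered in H3K9ac, against 4.2% of all genes, and 4 less, against 9.22%. In H3K27ac 4 of 36 were more covered, against 12.8%, and 1 less, against 2.3%, so these shares were near those of all genes.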

How the data were processed

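ChIP-seq peaks of dorsal hippocampus were the measurement. The authors deposited a peak list per mark and condition, 8 in all, and every replicate of a group points to its group's list. The way the 3 replicates were combined is not stated. Per the labels, ChIP was compared with input and peaks were kept up to a false discovery rate of 0.001. Tools and genome named in the submitters' processing notes, without roles, are bcl2fastq, STAR 2.5.2a, MACS2, bedtools and GRCm38 (mm10). The authors' score column, taken to be a −log10 q-value because its minimum is just above 3, depends on read depth. That depth is unknown, and more reads alone can yield more peaks.

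Covered bases were computed with Python 3.11.15, numpy 2.4.6 and pandas 2.3.3 from the deposited coordinates and a RefSeq gene table of GRCm38.p6, for 21887 protein-coding genes. The table gives no strand, so both gene ends were used. Starts and sequences come from a RefSeq promoter table that held 26 of the 33 genes. Scn3a, Scn3b, Hcn3, Cacna1a, Cacna1g, Cacna1h and Cacna2d4 were not in it. The covered-base and region code was tested on simulated intervals. For each mark 4 comparisons were made between conditions, with the rule of 1.5-fold and 200 bp and no test, and groups come from the sample labels. Genes given with all values are the 6 with the largest called differences in a comparison and the 3 most and 3 least covered of each mark, and others are named as examples after their values were seen. The gene list, its partner and marker lists and the comparisons were chosen with earlier results of these data known. Alternatives were gene ends or interiors only, lists cut to equal length, peaks at or above the median score, a 2-fold rule, other windows and merging rules and, chosen after seeing the data, leaving out bases within 2 kb of the ends of other genes. Input libraries and signal tracks were not used here. The values of some marker genes are not reported here.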

Additional observations from a re-analysis of the deposited data

Results flagged for a closer look

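At 4 genes the ethanol difference had opposite directions under the 2 vectors, being called less covered after ethanol with control vector and more covered after ethanol in the knockdown. How many of all protein-coding genes have this pattern is not given here, so the 4 are not compared with them. Of all covered genes, 33% were less covered in H3K9ac with control vector and 11.4% more covered in the knockdown. For H3K27ac these shares were 6.75% and 13.6%. The difference between the 2 responses was not tested, since each rests on 1 list per condition. For Cacna1c H3K9ac the ethanol difference in the knockdown exceeded that with control vector by 5203 bp, from 5552 bp untreated and 2768 bp after ethanol with control vector to 4227 and 6646 bp in the knockdown. For Scn2b H3K9ac this was 1263 bp, with values of 1547, 971, 1355 and 2042 bp. For Cacnb2 H3K27ac it was 4035 bp, with values of 4312, 2530, 4445 and 6698 bp. For Hcn3 H3K27ac it was 978 bp, with values of 922, 518, 784 and 1358 bp, and without the bases near an end of Pklr Hcn3 was no longer called in the knockdown, where the difference was 287 bp.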

How the results depend on the processing

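No paired analysis was possible because each list stands for all 3 replicates of a group and its columns carry no replicate numbers, and for the same reason no replicate could be left out. Depth limits every comparison, since it is unknown. Of 128 alternative counts and shares for all channel genes, 90 stayed within 1.5 times the main count or inside its interval and 38 did not. The causes were not tested, beyond fewer bases or a stricter rule where the alternative is built that way.

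Here and below, an alternative count without a share of all genes beside it is not a comparison with all genes. With the 2-fold rule the counts of less covered genes after ethanol with control vector were 11 for H3K9ac (23 by the main rule) and 4 for H3K27ac (8). Those of more covered genes in the knockdown after ethanol were 13 and 14 (22 each). At gene ends only, 11 of 28 were less covered after ethanol with control vector in H3K9ac (39.3%, against 27.4% of all genes). In H3K27ac 3 of 27 were (11.1%, against 5.04%). More covered in the knockdown after ethanol at ends were 11 of 26 in H3K9ac (42.3%, against 29.9%) and 11 of 30 in H3K27ac (36.7%, against 18.5%). Inside genes only, 15 of 22 were less covered in H3K9ac after ethanol with control vector (against 46.7% of all genes) and 0 more (1 by the main rule). For H3K27ac after ethanol with control vector, 1 gene was more covered with lists of equal length or with peaks at or above the median score (0).

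For ethanol in the knockdown, more covered genes in H3K9ac were 2 with equal length, 8 at the median score and 2 with the 2-fold rule (4), and less covered ones 2, with equal length, and 0, with the 2-fold rule or without bases near other genes' ends (1). In H3K27ac more covered genes were 1 at ends, 8 inside, 1 with equal length and 0 with the 2-fold rule (4), and 1 was less covered at ends (0). For the knockdown without ethanol, more covered genes in H3K9ac were 1 inside, 1 at the median score and 1 without bases near other genes' ends (0), and 0 were less covered inside (2). In H3K27ac more covered genes were 6 at ends, 4 inside and 9 at the median score (2), and 0 were less covered at ends or with the 2-fold rule (1). The 6 at ends were 20.7%, against 9.55% of all genes, and the 4 inside 15.4%, against 28.2%.

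At the median score, genes with an H3K9ac peak at an end were 18 in untreated control (28) and 13 in ethanol-treated control mice (24). The share of regions in all 4 lists was 18.3% for H3K9ac and 8.80% for H3K27ac when 50% of a region had to be covered, 47.9% for H3K9ac with equal lengths and 28.1% for H3K27ac when merged within 500 bp. Single genes turned direction in 5 cases. At the median score these were Hcn4 H3K9ac for ethanol in the knockdown (221 bp), Cacna1g H3K27ac for ethanol with control vector (184 bp) and Scn4a H3K27ac for the knockdown after ethanol (-153 bp). At ends they were Cacna1h H3K9ac for the knockdown after ethanol (-12 bp) and Cacna1f H3K27ac for ethanol with control vector (24 bp).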
